A study of Homo sapiens with 8 samples.

Results

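The BCL2 family of apoptosis regulators was followed in MOLM-13, an acute myeloid leukemia cell line that carries a KMT2A fusion, after exposure to PR-957 (ONX-0914), a covalent inhibitor of the immunoproteasome subunit PSMB8. In total 10 genes were taken by symbol from the 38551 genes with counts, and all 10 were present, lay at a single genomic placement and passed the filter on low counts. They comprised the survival genes BCL2, BCL2L1, MCL1 and BCL2A1, the BH3-only genes BCL2L11, BBC3, PMAIP1 and BID, and the effector genes BAX and BAK1. Polyadenylated RNA was sequenced from 4 libraries of cells given the diluent DMSO and 4 libraries of cells given 100 nM PR-957, both for 72 h. The labels name no genetic change in either group, and all libraries come from this 1 line. The sources used here do not say whether replicates were separate cultures, so p-values measure the spread between these libraries, which may be technical.

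Members of this family decide whether the outer mitochondrial membrane stays closed. BAX and BAK1 form the pores that release cytochrome c, survival proteins bind and restrain them, and BH3-only proteins are the stress sensors that occupy survival proteins or engage the effectors directly. In acute myeloid leukemia, BCL2 and MCL1 are the survival proteins against which inhibitors have been developed, and the balance between roles is set by transcription, splicing and protein turnover together. Only transcript levels were measured here, and fewer cells of a kind cannot be told apart from less RNA per cell.

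The libraries held between 16675036 and 23111223 counts. Of 8 myeloid markers, all were detected in every library, from CSF1R with 54 to 171 counts up to LYZ with 2477 to 18286, and their summed level ran from 1605 to 1679 CPM (counts of the gene relative to the scaled library total) in DMSO and from 2298 to 2546 CPM in PR-957 libraries. Of 11 genes listed as markers of other cell types, CD3E was at 0 in all libraries and NCAM1 and PECAM1 were the 2 with more than 34 counts in any library. Within the myeloid markers LYZ (2.42), MPO (1.53) and SPI1 (0.20) rose on the log2 scale and FLT3 (-0.98) and PTPRC (-0.66) fell, and among the others NCAM1 fell (-0.81) and PECAM1 rose (0.75), all past the threshold of an adjusted p of 0.05 (edgeR). The summed level of these 11 was 143 to 163 CPM in DMSO and 135 to 151 CPM in PR-957 libraries. The share of counts from mitochondrially encoded genes was 2.28 ± 0.340% in DMSO and 4.70 ± 0.449% in PR-957 libraries (SD, n = 4 each, exact permutation p = 0.0286, two-sided, the smallest this design allows), and that of ribosomal protein genes was 18.7 ± 0.598% and 14.7 ± 0.732% (exact permutation p = 0.0286). These shares and markers moved with the treatment and so with every result below. Their part in the results was not tested, except that leaving the mitochondrial and ribosomal protein genes out of the scaling moved no member across the threshold.

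Sequences around the annotated start sites of the members were examined first. The RefSeq promoter table (GRCh38.p14, a patch release of the hg38 assembly used for the counts) held 9 of the 10 members, from 250 bases before to 50 bases after each start site. The windows of BCL2 (chr18:63319720-63320019) and BBC3 (chr19:47232618-47232917) lay wholly within the gene models used for counting. These models reach 63320280 and 47232998 on the minus strand, so sequence upstream of them was not searched for either gene. The cAMP response element TGACGTCA, the C/EBP-ATF element TGATGNAA bound by ATF4 with C/EBP partners, the heat shock element (GAA and TTC units in turn, parted by any 2 bases, in a run of 3 units) and the E2F element TTTCGCGC or TTTGGCGC were searched on both strands. These motifs stood in 1.85%, 3.62%, 0.49% and 1.15% of all 35116 promoter windows, respectively. Among the members the search gave a single match, a C/EBP-ATF element at bases -63 to -56 of BCL2A1 (chr15:79971232-79971279, minus strand, match in capitals).
BCL2A1: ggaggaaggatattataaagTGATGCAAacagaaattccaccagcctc

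Another 2 motifs were added after the promoters had been seen. These were the shortened cAMP response element TGACGT, found in 7.98% of windows, and the E-box CACGTG, a site of MYC and of other basic helix-loop-helix factors, found in 7.26%. TGACGT is contained in TGACGTCA, so these 2 motifs overlap. PMAIP1, the member with the second largest fall, carried the first on the reverse strand at bases -56 to -51 and is shown from 250 bases before its start (chr18:59899746-59899995, plus strand, match in capitals).
PMAIP1: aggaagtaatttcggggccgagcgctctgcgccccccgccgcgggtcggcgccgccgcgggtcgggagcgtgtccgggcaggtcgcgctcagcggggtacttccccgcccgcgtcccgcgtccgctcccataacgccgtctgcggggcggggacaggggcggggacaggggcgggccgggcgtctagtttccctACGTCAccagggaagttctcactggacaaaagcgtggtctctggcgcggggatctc

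BAX, the member with the highest level per length, held 4 E-boxes in its window. At least 4 were held by 5 or 0.0142% of all windows, that of BAX included. The motif was added after this window was seen and the cut is its own count, so the share is a description only. Of these, 2 lie in the stretch upstream of the gene model used for counting (chr19:48954625-48954824, plus strand, E-boxes in capitals), and the other 2 lie at bases -45 to -40 and -14 to -9. BBC3 held 1 E-box, inside its gene model. BID held 1 site, which 2 of its 5 windows share. The match of letters is a description and does not show binding.
BAX: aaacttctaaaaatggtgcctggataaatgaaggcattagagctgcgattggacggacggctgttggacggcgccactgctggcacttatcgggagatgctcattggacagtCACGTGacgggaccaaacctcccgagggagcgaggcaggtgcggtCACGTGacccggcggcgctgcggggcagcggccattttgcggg

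To ask how immunoproteasome inhibition changes this family, PR-957 was compared with DMSO in a fit over 13179 genes (edgeR quasi-likelihood test, Benjamini-Hochberg adjustment over all of them). Of the 10 members, 4 were higher and 4 lower (adjusted p below 0.05), and MCL1 and BCL2A1 did not pass. Among all genes tested 23.1% were higher and 23.5% lower, 46.6% in total. With library totals alone in place of TMM scaling, 30.9% of all genes were higher and 17.9% lower. At least 1.5-fold changes were found for BCL2, BBC3 and PMAIP1, 3 of 10 members, against 13.8% of all genes, and all 3 were decreases. The median log2 fold change of the members was 0.12 and that of all genes tested was 0.00. By role, BH3-only genes had a median of -0.67 with 3 lower and 1 higher, survival genes a median of 0.12 with 1 lower and 1 higher, and both effector genes were higher with a median of 0.31.

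**Figure D1:**
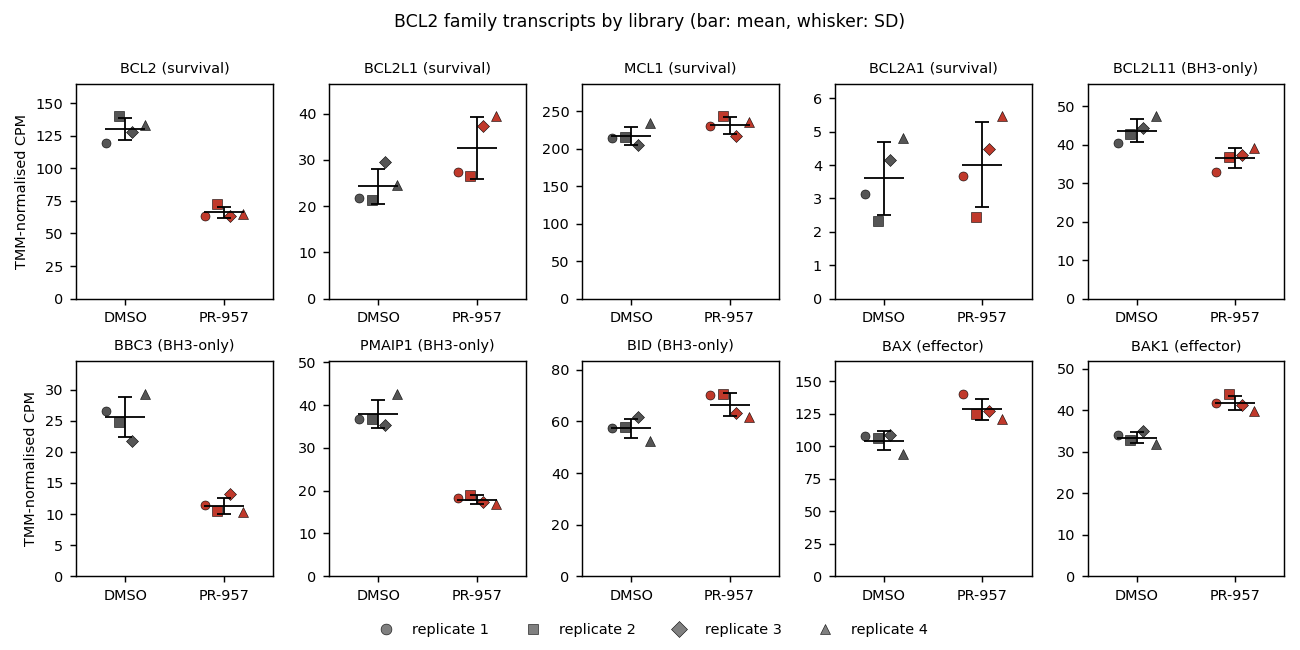
TMM-normalised CPM of the 10 members (y axes, each from 0) in the 4 DMSO and 4 PR-957 libraries (x axes), with 1 symbol per replicate number, the mean as a bar and the SD as whiskers. The groups stand apart for 7 members and overlap for BCL2L1, MCL1 and BCL2A1.

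BCL2, the founding survival gene and a known target of KMT2A fusions, fell nearly 2-fold and was the only 1 of the 4 survival members to fall. The gene lies on chromosome 18 (hg38, 63123346 to 63320280, minus strand), and its level was 120 CPM, 140 CPM, 128 CPM and 133 CPM in DMSO replicates 1 to 4. In PR-957 replicates 1 to 4 it was 63.6 CPM, 72.5 CPM, 63.4 CPM and 64.8 CPM. Every PR-957 library was far below every DMSO library. The group means were 130.1 ± 8.51 and 66.1 ± 4.32 CPM (SD, n = 4), -0.98 ± 0.06 on the log2 scale (SE, 95% interval -1.10 to -0.86, adjusted p = 3.48e-10, edgeR). A lower log2 fold change was seen for 362 of 13179 genes.

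MCL1, the short-lived survival protein that sequesters BAK1 and that PMAIP1 binds, differed between groups by little more than its spread. It lies on chromosome 1 (150574551 to 150579738, minus strand), and had 214 CPM, 216 CPM, 205 CPM and 234 CPM in DMSO replicates 1 to 4. The PR-957 replicates 1 to 4 had 230.3 CPM, 243 CPM, 217 CPM and 235 CPM. The ranges overlapped. On the log2 scale the difference was 0.09 ± 0.06 (SE, adjusted p = 0.198, edgeR) with an approximate 95% interval from -0.02 to 0.20. MCL1 passed the threshold as higher with library totals alone (log2 fold change 0.17, adjusted p = 0.0198) and without DMSO replicate 4 (0.13, adjusted p = 0.0465), the extremes of its adjusted p being 0.0198 and 0.782.

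BCL2L1, which encodes BCL-XL, was the survival gene that rose, with a spread between replicates larger than that of BCL2. It lies on chromosome 20 (31664452 to 31723963, minus strand). Its level was 21.9 CPM, 21.2 CPM, 29.5 CPM and 24.5 CPM in DMSO replicates 1 to 4 and 27.4 CPM, 26.4 CPM, 37.4 CPM and 39.4 CPM in PR-957 replicates 1 to 4. DMSO replicate 3 exceeded PR-957 replicates 1 and 2, so the groups overlapped, and in both groups replicates 3 and 4 were above replicates 1 and 2. The means were 24.3 ± 3.78 and 32.6 ± 6.68 CPM, 0.43 ± 0.16 on the log2 scale (SE, adjusted p = 0.0466, edgeR).

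In the fit with no term for replicates, the call for BCL2L1 depended on single libraries. Leaving out DMSO replicate 1, 2 or 4 or PR-957 replicate 3 or 4 gave an adjusted p of 0.109, 0.104, 0.108, 0.0971 and 0.0876 (edgeR), and over 20 alternatives the adjusted p lay between 4.87e-06 and 0.109. The log2 fold change was 0.32 within the pair of replicates 1 and 2 (adjusted p = 0.00879) and 0.51 within that of replicates 3 and 4 (adjusted p = 0.00174). With replicates 1 and 2 against 3 and 4 as a term it was 0.42 (edgeR, adjusted p = 4.69e-05). Of its exon bases 35% are overlapped on the opposite strand by ABALON, which had at most 2 counts in any library, and counting used the strand.

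BCL2A1, which encodes BFL-1 and is induced by NF-kB in myeloid cells, had the lowest CPM of the members. It lies on chromosome 15 (79960892 to 79971196, minus strand) and had 3.13 CPM, 2.34 CPM, 4.17 CPM and 4.81 CPM in DMSO replicates 1 to 4. It had 3.68 CPM, 2.45 CPM, 4.47 CPM and 5.46 CPM in PR-957 replicates 1 to 4, which covers much the same range. These values rest on 42 to 110 counts per library. On the log2 scale the difference was 0.14 ± 0.25 (SE, adjusted p = 0.663, edgeR) with a 95% interval from -0.34 to 0.63. Without DMSO replicate 2 or PR-957 replicate 4 the value was -0.02 or -0.04.

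BBC3, which encodes PUMA, and PMAIP1, which encodes NOXA, are BH3-only genes induced, under stress of the endoplasmic reticulum or lack of amino acids, by ATF4 and its partners. BBC3 was 2.25-fold and PMAIP1 2.12-fold lower in PR-957 libraries. BBC3 (chromosome 19, 47220822 to 47232998, minus strand) had 26.6 CPM, 24.8 CPM, 21.7 CPM and 29.3 CPM in DMSO and 11.4 CPM, 10.4 CPM, 13.1 CPM and 10.4 CPM in PR-957 replicates 1 to 4. Its means were 25.6 ± 3.21 and 11.4 ± 1.29 CPM, -1.17 ± 0.10 on the log2 scale (SE, adjusted p = 2.65e-08, edgeR).

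PMAIP1 (chromosome 18, 59899996 to 59904305, plus strand) had 36.8 CPM, 36.8 CPM, 35.4 CPM and 42.6 CPM in DMSO replicates 1 to 4. In PR-957 replicates 1 to 4 it had 18.4 CPM, 19.1 CPM, 17.4 CPM and 16.9 CPM. No PR-957 library reached the lowest DMSO library for either gene. The means of PMAIP1 were 37.9 ± 3.20 and 17.9 ± 0.978 CPM, -1.08 ± 0.08 on the log2 scale (SE, adjusted p = 1.81e-09, edgeR). Lower log2 fold changes than those of BBC3 and PMAIP1 were seen for 243 and 289 of 13179 genes.

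BCL2L11, which encodes BIM, the BH3-only protein that binds every survival protein and is induced by FOXO3, fell by a smaller amount. It lies on chromosome 2 (111120914 to 111168445, plus strand), with 40.4 CPM, 42.7 CPM, 44.3 CPM and 47.4 CPM in DMSO replicates 1 to 4 and 32.9 CPM, 36.8 CPM, 37.3 CPM and 39.2 CPM in PR-957 replicates 1 to 4. The highest PR-957 library lay just under the lowest DMSO library. On the log2 scale the difference was -0.26 ± 0.07 (SE, adjusted p = 0.00511, edgeR). With library totals alone it was -0.18 and missed the threshold (0.0579), and over 20 alternatives the adjusted p lay between 0.000619 and 0.0579.

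BID, the BH3-only protein that links death receptors to mitochondria after cleavage by caspase 8, was the only BH3-only gene among the 4 that rose. It lies on chromosome 22 (17734140 to 17774665, minus strand). Its level was 57.4 CPM, 57.8 CPM, 61.7 CPM and 52.6 CPM in DMSO and 70.2 CPM, 70.6 CPM, 63.4 CPM and 61.8 CPM in PR-957 replicates 1 to 4. The lowest PR-957 library and the highest DMSO library nearly met. On the log2 scale the difference was 0.21 ± 0.07 (SE, adjusted p = 0.0108, edgeR). It was 0.29 within the pair of replicates 1 and 2 and 0.13 within that of replicates 3 and 4, where it missed the threshold (0.278), and over 20 alternatives the adjusted p lay between 0.000618 and 0.278.

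Both effector genes rose, BAX 1.23-fold and BAK1 1.25-fold. BAX (chromosome 19, 48954825 to 48961798, plus strand) had 108 CPM, 106 CPM, 109 CPM and 93.8 CPM in DMSO replicates 1 to 4. In PR-957 replicates 1 to 4 it had 140.0 CPM, 125 CPM, 127 CPM and 120.5 CPM. The groups did not overlap, and DMSO replicate 4 was the lowest library. The means were 104 ± 7.08 and 128 ± 8.42 CPM, 0.30 ± 0.06 on the log2 scale (SE, adjusted p = 0.00061, edgeR).

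BAK1 (chromosome 6, 33572552 to 33580296, minus strand) had 34.1 CPM, 32.8 CPM, 35.0 CPM and 31.9 CPM in DMSO and 41.7 CPM, 43.95 CPM, 41.2 CPM and 39.9 CPM in PR-957 replicates 1 to 4. Its groups were also separate. The means were 33.5 ± 1.36 and 41.7 ± 1.68 CPM, 0.32 ± 0.06 on the log2 scale (SE, adjusted p = 0.000424, edgeR). In all, 7 of 10 members showed no overlap between groups, against 42.5% of all genes tested.

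**Figure D2:**
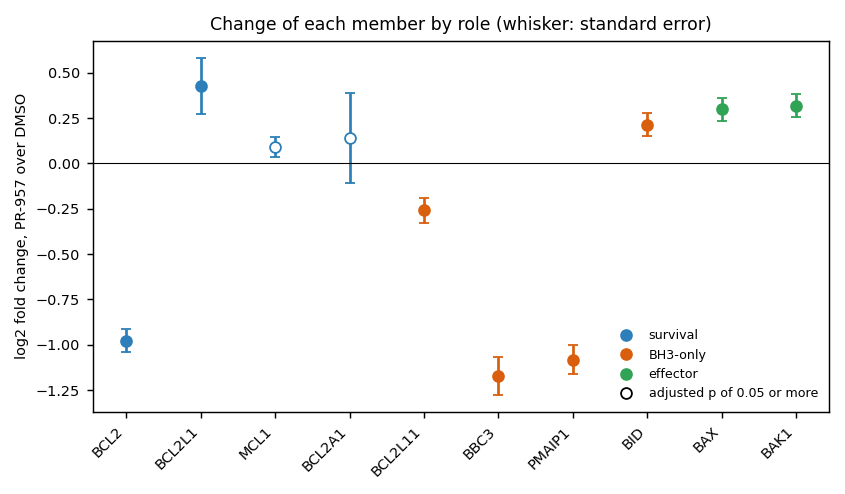
Log2 fold change of PR-957 over DMSO (y axis) for each member (x axis), coloured by role, with standard errors as whiskers and open symbols for an adjusted p of 0.05 or more. BCL2, BBC3 and PMAIP1 lie near -1, while BAX and BAK1 lie near 0.30.

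Levels were next set side by side per length, as CPM per kilobase of annotated exon, since a longer transcript gives more fragments. In DMSO the order of these per-length levels was BAX (66.8 ± 4.54), MCL1 (53.2 ± 2.97), BID (21.6 ± 1.41), PMAIP1 (19.95 ± 1.68), BAK1 (14.5 ± 0.591), BCL2 (12.2 ± 0.796), BBC3 (10.8 ± 1.35), BCL2L1 (7.80 ± 1.21), BCL2L11 (5.67 ± 0.379) and BCL2A1 (4.32 ± 1.31). In this order the libraries of BID and PMAIP1, of BCL2 and BBC3, of BBC3 and BCL2L1, and of BCL2L11 and BCL2A1 overlapped, and the other neighbours did not. BAX, MCL1 and BID stayed the 3 highest in PR-957 libraries, with 82.1 ± 5.40, 56.7 ± 2.70 and 25.0 ± 1.72 CPM per kilobase. BCL2 moved from the sixth to the seventh place and BCL2L1 from the eighth to the fifth. In PR-957 libraries BCL2 overlapped the next gene, BCL2A1, and BCL2L1 overlapped the next gene, PMAIP1. The order depends on the length taken for each gene. With the longest GENCODE v44 transcript, chosen after the data were seen, BCL2 was above BAK1 in DMSO.

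**Figure D3:**
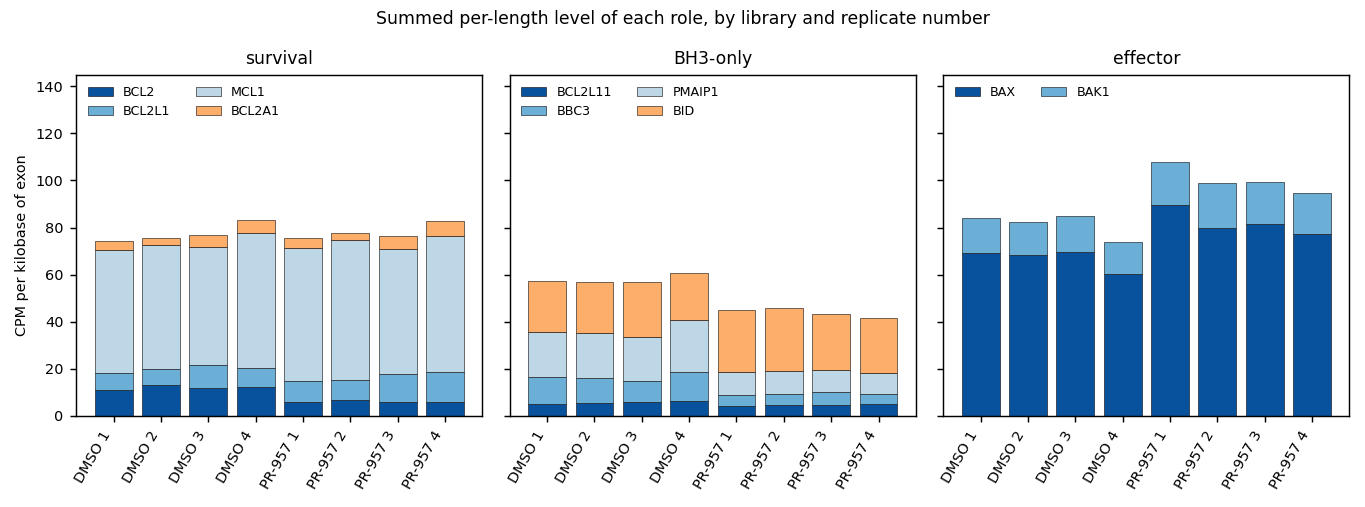
Per-length level (y axis, CPM per kilobase of exon, from 0) of the survival, BH3-only and effector members stacked by gene, for each of the 8 libraries (x axes). Survival totals lie between 74.4 and 83.4 in both groups, BH3-only totals lie between 56.7 and 60.7 in DMSO and between 41.6 and 45.8 in PR-957 libraries, and effector totals lie between 74.0 and 85.0 and between 94.6 and 108.

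Summed over the 4 survival genes, the per-length level was 77.5 ± 4.05 CPM per kilobase in DMSO and 78.2 ± 3.28 in PR-957 libraries. The sum of the 4 BH3-only genes was 58.0 ± 1.82 and 43.96 ± 1.88, and that of both effector genes was 81.4 ± 5.04 and 100.3 ± 5.55. These sums are a description with no test, because the members were chosen with results known. The survival sum differed by 0.64 CPM per kilobase, which is within its spread, and its makeup moved. BCL2 gave 15.7 ± 1.11% of it in DMSO and 7.92 ± 0.587% in PR-957 libraries, with no overlap. MCL1 gave 68.7 ± 2.22% and 72.6 ± 3.60%, and BCL2L1 gave 10.1 ± 1.54% and 13.4 ± 2.46%, with overlapping libraries for both. With the longest GENCODE v44 transcript the MCL1 share did not overlap, at 59.0 to 63.9% in DMSO and 65.2 to 71.9% in PR-957 libraries.

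Within the BH3-only sum, BID gave 37.3 ± 3.47% in DMSO and 56.8 ± 1.68% in PR-957 libraries. PMAIP1 gave 34.4 ± 1.78% and 21.5 ± 0.336%, and BBC3 gave 18.6 ± 1.85% and 10.9 ± 1.34%. BCL2L11 gave 9.78 ± 0.470% and 10.8 ± 1.17%.

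Ratios of 2 members within a library do not depend on library scaling, though their size depends on the length taken for each gene. The 4 given here restate the levels above, so they serve as a description only. The p-values of the permutation test run on them are not reported here. The ratio of BCL2 to MCL1, per length, was 0.213, 0.248, 0.238 and 0.217 in DMSO replicates 1 to 4 and 0.106, 0.114, 0.112 and 0.105 in PR-957 replicates 1 to 4. It was 2.10-fold lower in PR-957 libraries, with no overlap. BCL2 to BCL2L11, a survival gene set against the BH3-only partner it holds, was 2.13, 2.36, 2.08 and 2.03 in DMSO and 1.39, 1.42, 1.23 and 1.19 in PR-957 libraries. This ratio was 1.65-fold lower, again with no overlap.

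MCL1 to PMAIP1, a survival gene and its selective antagonist, went from 2.71, 2.73, 2.69 and 2.56 to 5.82, 5.94, 5.80 and 6.49 in replicates 1 to 4. The ratio was 2.25-fold higher, with all 4 PR-957 libraries above the DMSO libraries. BAX to BAK1 was 4.68, 4.78, 4.59 and 4.33 in DMSO and 4.96, 4.19, 4.56 and 4.45 in PR-957 libraries. These ranges overlapped, and the difference was -0.02 on the log2 scale against SDs of 0.06 and 0.10.

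**Figure D4:**
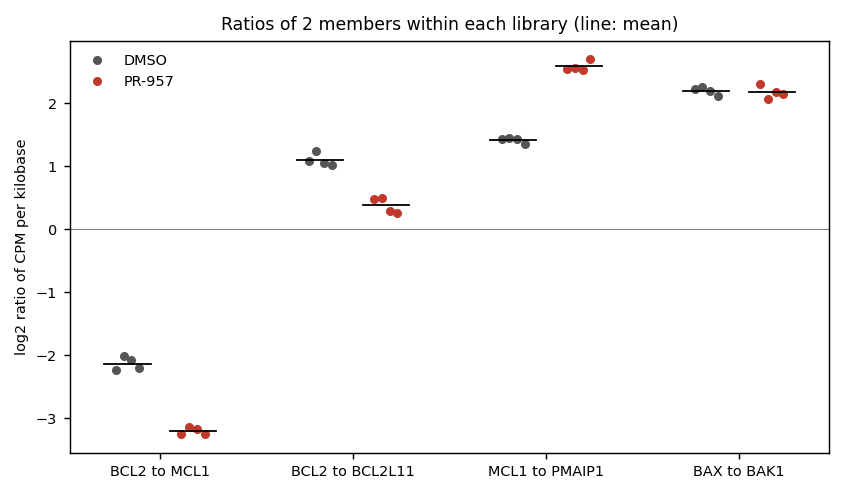
Log2 ratio of the per-length levels of 2 members (y axis) in each library, for 4 pairs of members (x axis), with DMSO in grey, PR-957 in red and the mean as a line. Both BCL2 ratios are lower and MCL1 to PMAIP1 is higher in every PR-957 library, while BAX to BAK1 overlaps.

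Other genes of the family were examined from a list of 13, of which 10 passed the filter on low counts, with 5 lower, 2 higher and a median log2 fold change of -0.32. BAD, a BH3-only gene whose protein is held inactive by phosphorylation, rose from 8.85 ± 1.06 to 12.7 ± 1.14 CPM, 0.52 ± 0.11 on the log2 scale (SE, adjusted p = 0.000867, edgeR). BCL2L12 rose by 0.29 (adjusted p = 0.00375, edgeR). HRK, a BH3-only gene best known from neurons, fell from 5.05 ± 0.657 to 3.20 ± 0.297 CPM, -0.66 on the log2 scale (adjusted p = 0.00335, edgeR). BCL2L13, a mitophagy receptor, had a log2 fold change of -0.37, and BCL2L2, which encodes the survival protein BCL-W, had -0.27. The call for BCL2L2 (adjusted p = 0.021, edgeR) was lost by library totals alone (0.101), within replicates 3 and 4 (0.269) and without replicate 2 of DMSO (0.104) or of PR-957 (0.0704), with 0.00879 and 0.269 as its extremes.

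For BNIP3, BNIP3L and BMF, DMSO replicate 4 lay well above the other DMSO libraries. BNIP3, a mitophagy receptor induced by low oxygen, had 99.8 CPM, 83.1 CPM, 97.7 CPM and 186 CPM in DMSO replicates 1 to 4 and between 38.3 and 42.0 CPM in PR-957 libraries. The log2 difference was -1.53 (adjusted p = 0.00451, edgeR) and -1.21 without DMSO replicate 4. The call was lost in replicates 3 and 4 only (adjusted p = 0.113, with 5.63e-16 and 0.113 as its extremes).

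BMF, a BH3-only gene tied to the cytoskeleton, had 18.9 CPM, 16.0 CPM, 21.6 CPM and 36.0 CPM in DMSO and between 13.2 and 14.7 CPM in PR-957 libraries. The log2 difference was -0.74 (adjusted p = 0.0495, edgeR) and -0.44 without DMSO replicate 4 (adjusted p = 0.00116). In 13 of 20 alternatives it did not pass the threshold, among them leaving out DMSO replicate 1 (0.0510), DMSO replicate 3 (0.0744) or any 1 PR-957 library (0.0948, 0.101, 0.115 and 0.119 for replicates 1 to 4).

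BNIP3L, the relative of BNIP3, had a log2 fold change of -0.84 and missed the threshold (edgeR, adjusted p = 0.0523). Without DMSO replicate 4 the value was -0.52 (adjusted p = 0.000373), with 1e-07 and 0.220 as its extremes. BIK and BCL2L15 did not pass the threshold (adjusted p = 0.267 and 0.990, edgeR), though BIK passed with no filter on low counts (0.0374). BCL2L10 had 7 counts in DMSO and none in PR-957 libraries, where 3 counts per library is the limit that a count of 0 allows. By raw library totals, without the TMM scaling used for other CPM, this limit is between 0.142 and 0.177 CPM. BOK had at most 2 counts in a library and BCL2L14 had none. Such limits cover counting error only.

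Transcription factors known to act on member genes, with the ligase MDM2, were taken from a list of 15, all tested, with 8 lower, 2 higher and a median log2 fold change of -0.29. DDIT3, which encodes CHOP, a partner of ATF4, fell from 82.2 ± 9.03 to 18.8 ± 0.934 CPM, -2.13 ± 0.08 on the log2 scale (SE, adjusted p = 6.38e-14, edgeR). ATF3 had a log2 fold change of -1.74 and ATF4 of -0.82, from 963 ± 62.7 to 545 ± 18.9 CPM. FOXO3, an activator of BCL2L11 and BBC3, fell from 72.0 ± 4.11 to 46.6 ± 2.68 CPM, -0.63 on the log2 scale (adjusted p = 1.44e-07, edgeR).

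MDM2, which encodes a ubiquitin ligase, had a log2 difference of 0.15 (adjusted p = 0.0203, edgeR). The MDM2 call was lost in replicates 3 and 4 only (0.256), with no filter (0.0653) and without replicate 1 of DMSO (0.0657) or of PR-957 (0.0594), the extremes of its adjusted p being 0.000655 and 0.256. MYC had a log2 fold change of -0.57, STAT5B of -0.34 and RELA, the NF-kB subunit, of -0.29, the last a call lost with library totals alone (0.0544) and within replicates 3 and 4 (0.0739). E2F1, the activator of S-phase genes, was the factor that rose, by 0.45 (adjusted p = 0.000126, edgeR). FOXO1, STAT3, STAT5A, NFKB1 and CREB1 did not pass, with log2 fold changes between -0.21 and 0.07, though CREB1 passed without DMSO replicate 1 (0.0498).

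Downstream of the pore, 15 of 16 listed genes of the apoptosome, caspases and inhibitors of apoptosis were tested, with 5 higher, 1 lower and a median of 0.05. CASP6, an executioner caspase, rose from 7.98 ± 0.744 to 13.2 ± 1.12 CPM, 0.72 ± 0.11 on the log2 scale (SE, adjusted p = 2.46e-05, edgeR). BIRC5, which encodes survivin and is expressed in dividing cells, rose by 0.48 (adjusted p = 9.25e-07, edgeR), and ENDOG, a mitochondrial nuclease, by 0.45. BIRC2, which encodes cIAP1, was lower at -0.24 (adjusted p = 0.00463, edgeR). The remaining 9 tested genes did not pass.

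Upstream of BID, 10 genes of death receptor signalling were tested, with 3 lower, 1 higher and a median of -0.04. TNFRSF10B, the TRAIL receptor DR5 and a target of CHOP, fell from 172 ± 5.80 to 139 ± 2.61 CPM, -0.31 on the log2 scale (adjusted p = 5.5e-05, edgeR). TNFRSF10A, the TRAIL receptor DR4, had -0.26, a call lost with library totals alone (0.0811) and within replicates 3 and 4 (0.178). TNFRSF1A had -0.18, a call lost with library totals alone (0.153), within replicates 1 and 2 (0.353) and without DMSO replicate 3 (0.0699) or PR-957 replicate 4 (0.0753). RIPK1 rose by 0.29 (adjusted p = 0.00347, edgeR).

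Genes that govern turnover of the MCL1 protein gave 3 lower and 1 higher of 8 tested, with a median of -0.15. The ubiquitin ligases HUWE1, MARCHF5 and FBXW7 had -0.25, -0.24 and -0.23 on the log2 scale (adjusted p = 0.000532, 0.00207 and 0.0167, edgeR), and FBXW7 lost its call with library totals alone (0.116) and within replicates 3 and 4 (0.2999). GSK3A had 0.15 (adjusted p = 0.0489, edgeR) and lost its call in 11 of 20 alternatives, among them leaving out replicate 1 or 4 of DMSO (0.125 and 0.122) or replicate 1, 2 or 4 of PR-957 (0.0947, 0.0969 and 0.0961). Among 8 partners at the mitochondrial membranes, 3 were higher and 2 lower, with a median of 0.08. OPA1, which holds the cristae closed, had a log2 fold change of -0.29 and VDAC2, which BAK1 needs to reach the membrane, had -0.24, while MFN2, PPIF and VDAC3 had 0.19, 0.17 and 0.16. The PPIF call was lost when replicate 2 (0.0589) or 4 (0.0582) of DMSO or replicate 3 of PR-957 (0.0751) was left out, and the VDAC3 call without DMSO replicate 2 (0.0593) or PR-957 replicate 1 (0.0590).

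**Figure D5:**
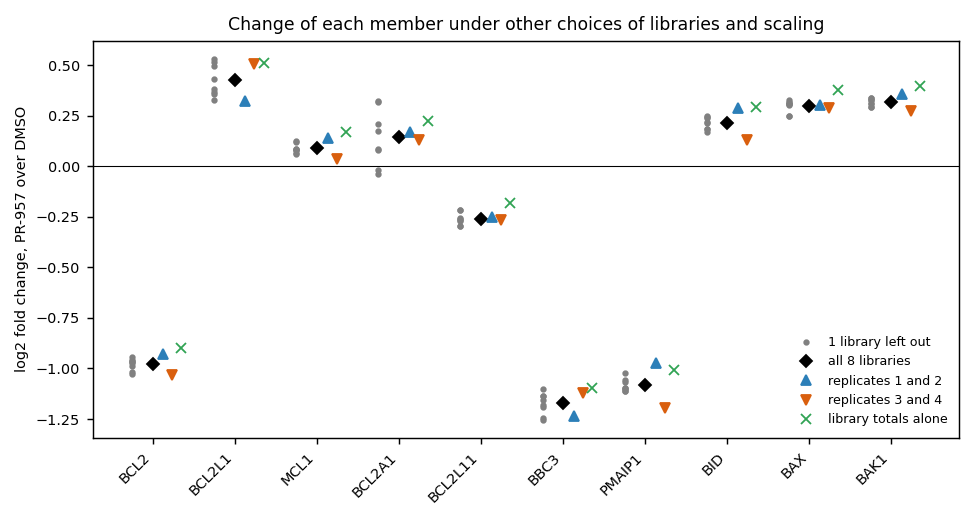
Log2 fold change of each member (y axis) with all 8 libraries, with 1 library left out, within replicates 1 and 2, within replicates 3 and 4 and by library totals alone, by gene (x axis). The sign is the same under all of these for 9 members and changes for BCL2A1, whose values with 1 library left out run from -0.04 to 0.32.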

How the data were processed

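By the submitters' processing notes and the table header, the authors trimmed reads with Trimmomatic 0.39, aligned them to hg38 with STAR 2.7.10a and counted fragments per RefSeq gene with featureCounts 2.0.1, both ends mapped, reverse strand. The deposited values are raw counts per gene with no normalization. The counting command named 16 libraries, of which the table held 8; the others were not analysed here. Another 6 gene rows without values were left out. The authors' own comparison table (DESeq2 fold changes and p-values) was not used.

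Counts were compared with edgeR 4.0.16 in R 4.3.3 (TMM scaling, filterByExpr, robust glmQLFit, glmQLFTest, two-sided). The SE was taken as the size of the log2 change over the root of its F statistic, and 95% intervals are 1.96 SE to either side. These intervals are approximate and too narrow, since the test itself allows for few libraries and 1.96 does not. CPM are TMM-normalised. Alternatives used DESeq2 1.42.0, limma 3.58.1 (voom), other scalings and filters, and subsets of libraries. No pair of replicates agreed within sampling noise (lowest chi-square per gene 3.19, where noise gives about 1).

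Members, lists and tests were chosen with earlier results of these data known. Named genes were the members, the tested genes of the other-family and transcription-factor lists, and in each other list up to 3 largest called changes per direction. Genes with few counts and marker genes were named after their values were seen. Protein sequences were not used here. Of the listed transcription factors, 1 is counted in its list but not reported here by name.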

Additional observations from a re-analysis of the deposited data

Results flagged for a closer look

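Among 104 groups of 4 libraries (52 named genes in DMSO and in PR-957), 9 held a library that stood apart from the other 3 by Dixon's criterion for 4 samples, where chance gives about 1 in 20. Among the members this was BCL2 in PR-957 replicate 2, with 72.5 CPM against 63.4 to 64.8 CPM in the others. DMSO replicate 4 stood apart for BNIP3 with 186 CPM (83.1 to 99.8 CPM in the others) and for BNIP3L with 88.6 CPM (42.8 to 49.3 CPM). DMSO replicate 2 stood apart for BCL2L2 with 26.6 CPM (20.8 to 21.8 CPM). PR-957 replicate 2 also stood apart for BAD with 11.01 CPM (13.1 to 13.4 CPM), for NFKB1 with 65.1 CPM (52.7 to 54.5 CPM) and for TNFRSF10A with 17.4 CPM (15.5 to 15.7 CPM). PR-957 replicate 3 stood apart for GSK3A with 55.0 CPM (58.3 to 58.9 CPM) and for STAT5A with 36.0 CPM (31.4 to 31.9 CPM).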

How the results depend on the processing

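BCL2, BBC3, PMAIP1, BAX and BAK1 kept their direction and side of the threshold under all 20 alternatives. With 1 library left out, BCL2L1 ran from 0.33 to 0.53, MCL1 from 0.063 to 0.13 and BCL2A1 from -0.038 to 0.32. Library totals alone gave 0.17 for MCL1 and -0.18 for BCL2L11, and replicates 3 and 4 only gave 0.13 for BID. BAX to BAK1 was 0.014 in replicates 3 and 4 only and ran from -0.063 to 0.018 with 1 library left out. The cause of these shifts was not tested. The members called ranged from 3 to 5 higher and from 3 to 4 lower. With the replicate number as a block, 4 members were higher and 4 lower, BCL2L1 stood at 0.42 (edgeR, adjusted p = 3.68e-05) and 6913 of all genes passed against 6143. BIK (0.00447) and BNIP3L (0.00522) passed with this block and missed without it, BMF (0.0730) the reverse, and BNIP3L also passed with DESeq2 (0.00969) and with replicates 1 and 2 against 3 and 4 as a term (0.0215). Correlations of same-numbered libraries were 0.15, 0.21, 0.10 and 0.20, the third under 0.1 (0.098). PR-957 replicate 3 was closer to DMSO replicate 4 (0.11), so the numbers were not taken as pairs. The libraries did share a coarser division. Every DMSO to PR-957 correlation within replicates 1 and 2, or within replicates 3 and 4, was positive (0.07 to 0.21). Every one across this division was negative (-0.19 to -0.04). The correlations used deviations from the mean of each group, which cancel within a group. The negative values are therefore not separate evidence of the division. The main fit held no term for it, and with such a term no member changed direction or side of the threshold. What produced the division was not tested.

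Counts by edgeR in the short lists moved with single genes. Other family genes were 1 higher and 3 lower in replicates 3 and 4 only, 3 lower with library totals alone, and 3 to 6 lower with 1 library left out. In the apoptosome list 0 were lower in replicates 3 and 4 only (3 at an unadjusted p under 0.05) and 1 to 2 with 1 library left out. In the death receptor list 2 were higher and 1 lower with library totals alone, 2 higher within replicates 1 and 2, 0 within replicates 3 and 4 (0 unadjusted), and 1 to 2 with 1 library left out. Factors gave 1 higher with no filter and in replicates 3 and 4 only, and 1 to 2 with 1 library left out. In the MCL1 turnover list, GSK3A being its only higher call, 0 were higher with RLE scaling, with TMM without mitochondrial and ribosomal protein genes, with no filter and with DESeq2 (1 unadjusted each), 0 within replicates 1 and 2 (1 unadjusted), 0 within replicates 3 and 4 (0 unadjusted), and 0 to 1 with 1 library left out. Membrane partners were 0 higher in replicates 1 and 2 only (2 unadjusted) and 1 to 3 with 1 library left out. BCL2L15 changed sign with no filter (-0.00201), DESeq2 (-0.00595) and replicates 1 and 2 only (-0.25), and ran from -0.15 to 0.29 with 1 library left out. NFKB1 was 0.052 with library totals alone and ran from -0.10 to 0.022. With GENCODE transcript lengths, chosen after the data were seen, the BH3-only sum differed by -16.0 in place of -14.0 CPM per kilobase and the survival sum by -2.41 in place of 0.64. Depth left BCL2L10, BOK and BCL2L14 untested.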
